A study of Rattus norvegicus with 23 samples.

Results

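Secretory airway cell and mucin genes were followed in the lungs of elderly rats that had inhaled a nanostructured TiO2 aerosol. The genes were Scgb1a1, Scgb3a1, Scgb3a2, Muc5ac, Muc5b, Agr2, Bpifa1, Reg3g, Pigr and Spdef, chosen by symbol, and these 10 of the 25597 named genes on the microarray were read by 11 of its 45598 probes. Total RNA of the accessory lobe of 23 male F344 rats, aged 19 months, was hybridized to 1-colour Agilent 8x60K arrays, with 1 rat per array. Exposure was nose-only, to 10 mg/m3 TiO2 or to filtered air, and ran over 4 weeks with 5 exposure days a week of 6 h each. Lungs were taken at the end of exposure (D0; 6 control and 5 exposed rats) or 28 days later (D28; 6 control and 6 exposed rats). All rats were of one strain, sex and starting age, so the D28 rats were also 28 days older, and all values are levels in whole lung tissue. In such a sample fewer cells of a type and less RNA per cell cannot be told apart.

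Club cells line the conducting airways and release secretoglobins, small proteins of the airway surface liquid, and they are the progenitors of mucous goblet cells. Gel-forming mucins, loaded into granules by goblet and club cells, make the layer that traps inhaled particles and that the cilia of neighbouring cells carry out of the lung. Other secreted proteins of the same epithelium bind microbes and lipids or carry antibodies to the surface.

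The source label of the 6 exposed D28 arrays gave day 0. Title, description and the methods of the study all placed these rats on day 28, and they were taken as D28. The arrays lay on 5 slides, each scanned on a day of its own, and Control_D28 replicate 4 was the only array on its slide. Between 69.5% and 77.9% of spots were well above background on each array. Foxj1, a regulator of ciliated cells, and the type II cell gene Sftpc were well above background on all 23 arrays, so airway and alveolar epithelium were both present in the lobes.

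Probe sequences are shown for the genes on which the results turn, as printed on the array, 5′ to 3′, with coordinates of the rat build rn4 as the array design gives them. The capitals mark the start codon in the Scgb3a1 probe and a GAA triplet that interrupts a GAG repeat in the Pigr repeat probe, of which the first 30 bases are given.
Scgb3a1 (chr10:35125575-35125634, plus strand): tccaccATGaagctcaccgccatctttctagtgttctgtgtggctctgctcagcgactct
Agr2 (chr6:54709562-54710914, plus strand): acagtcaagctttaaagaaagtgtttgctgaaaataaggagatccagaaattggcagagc
Muc5b (chr1:201992377-201992436, plus strand): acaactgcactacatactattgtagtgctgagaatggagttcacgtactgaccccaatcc
Pigr coding-region probe (chr13:43802502-43802936, plus strand): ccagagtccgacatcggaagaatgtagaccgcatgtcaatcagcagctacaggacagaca
Pigr repeat probe (chr13:43804820-43804908, plus strand): gaggaggaggaggagGAAgaggaggaggag

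Each probe was 60 bases long, and the Agr2 and coding-region Pigr probes extended over 1353 and 435 bp of the genome, so each crossed an intron. The Scgb3a1 probe began at base 6 of its transcript and held the start of the coding sequence. Pigr alone had more than 1 probe, and its repeat probe contained no pyrimidine: its 60 bases were 14 GAG and 6 GAA triplets, and 5 probes on the whole array had no pyrimidine. Muc5ac, a gel-forming mucin of goblet cells, was not well above background on any of the 23 arrays and did not pass the filter on dim probes, so 9 of the 10 genes were tested. Its only probe, alone among the probes of the set, had no rn4 position in the array design. The low signal of that probe is therefore not read as absence of Muc5ac RNA. Levels below are log2 normalized signals, which can be compared between rats for one probe but not between probes.

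**Figure D1:**
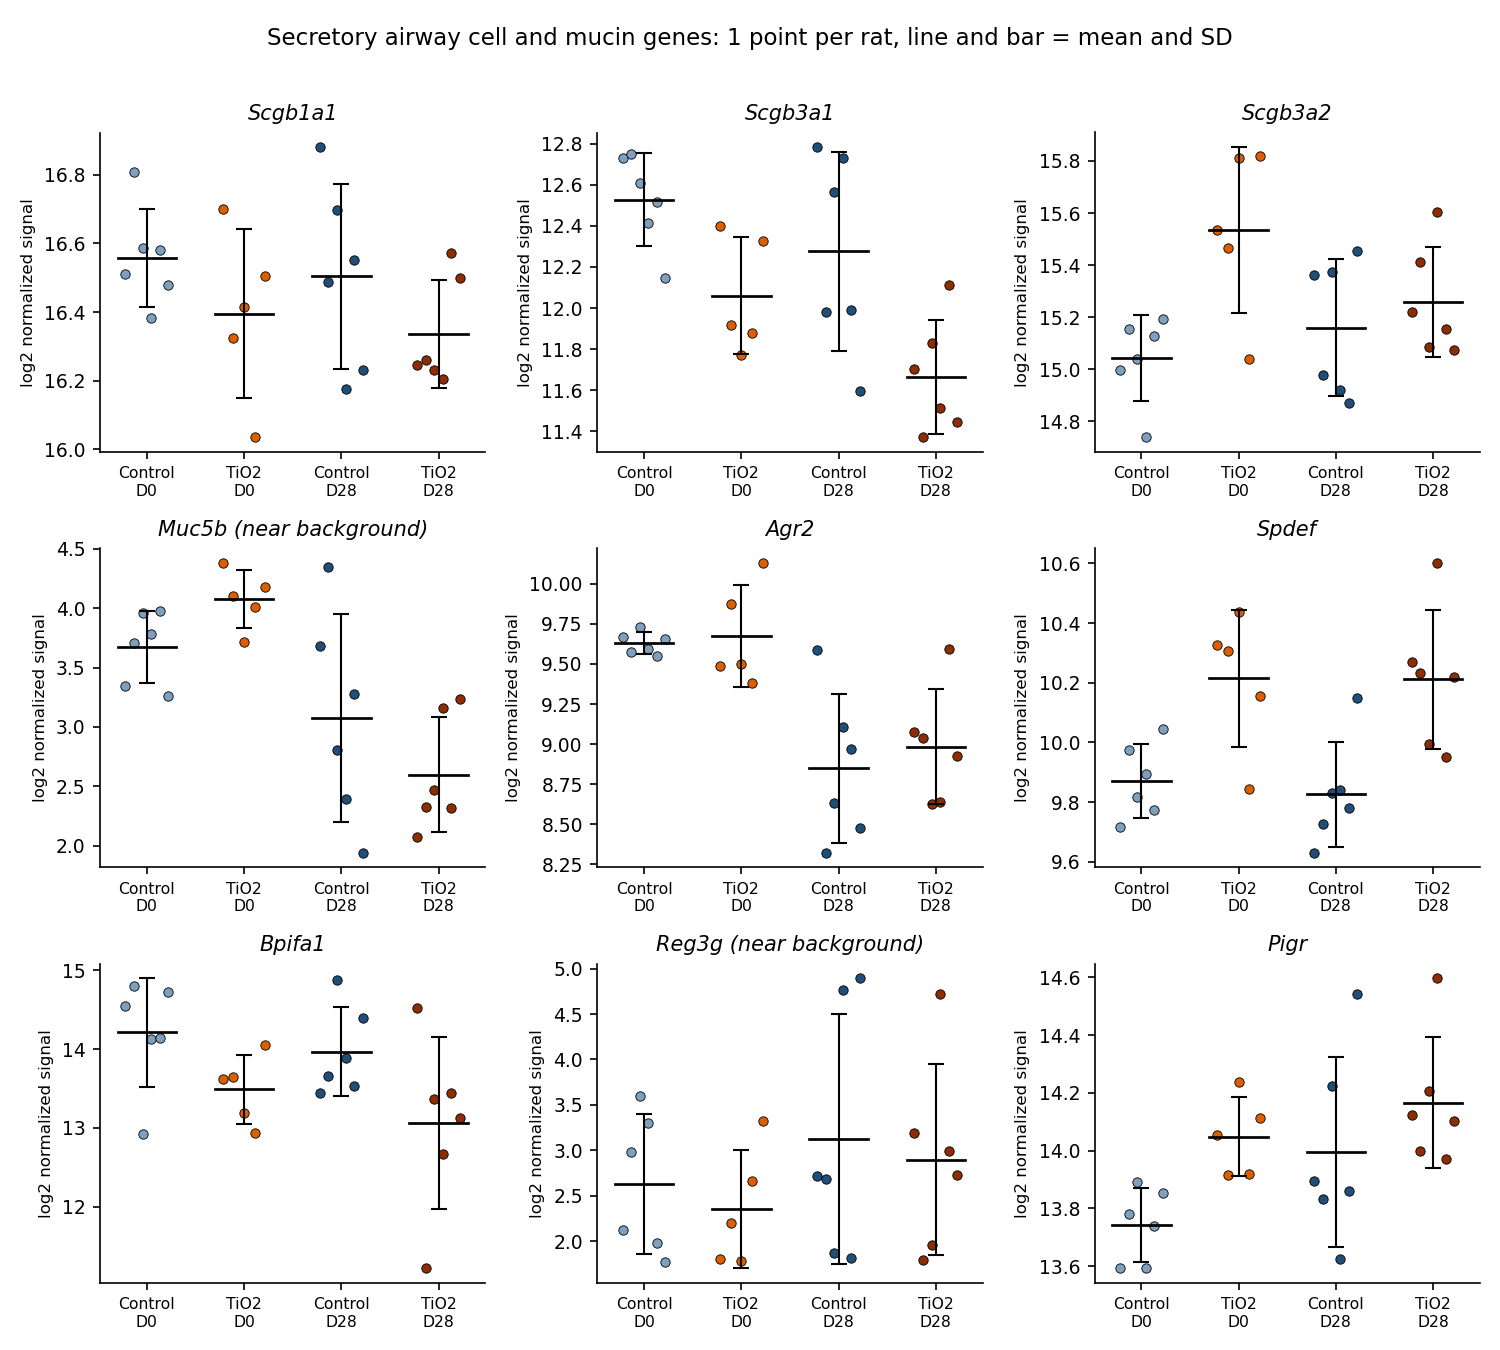
Level of the 9 tested genes in each rat (y axis, log2 normalized signal; 1 point per rat) in control and exposed rats on D0 and D28, with the group mean and SD as line and bar. Scgb3a1 was lower and Spdef higher in exposed rats on both days with overlapping groups, Pigr separated the groups on D0, and Agr2 was lower on D28 than on D0 in control and exposed rats.

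A gene was counted as differentially expressed (DEG) when its Benjamini-Hochberg adjusted p in limma, over 23029 genes, was below 0.05 and its fold change (FC) reached 1.5, up or down. None of the 9 genes was a DEG between exposed and control rats on D0, where 412 genes, 1.79% of those tested, were. None was a DEG on D28 either, where 174 genes, 0.756%, were. At an unadjusted limma p below 0.05 stood 4 of the 9 on D0, against 11.9% of all genes, and 3 of the 9 on D28, against 11% of all genes. By measured signal, genes near background included, on D0 5 of the 9 were higher in exposed rats by any amount, as were 49.9% of all genes, and on D28 4 of the 9, against 48.8%. For the difference between the effects of the 2 days, none of the 9 was a DEG and none had an unadjusted p below 0.05, against 0.0304% and 3.44% of all genes. A further contrast, chosen after the values had been seen, took the mean of the D0 and D28 effects: none of the 9 was a DEG, against 1.87% of all genes, and 5 had an unadjusted p below 0.05, against 17.2%. In it, 2 of the 9, Spdef and Scgb3a1, passed the adjusted p without reaching a FC of 1.5, as did 6.55% of all genes with or without that FC.

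**Figure D2:**
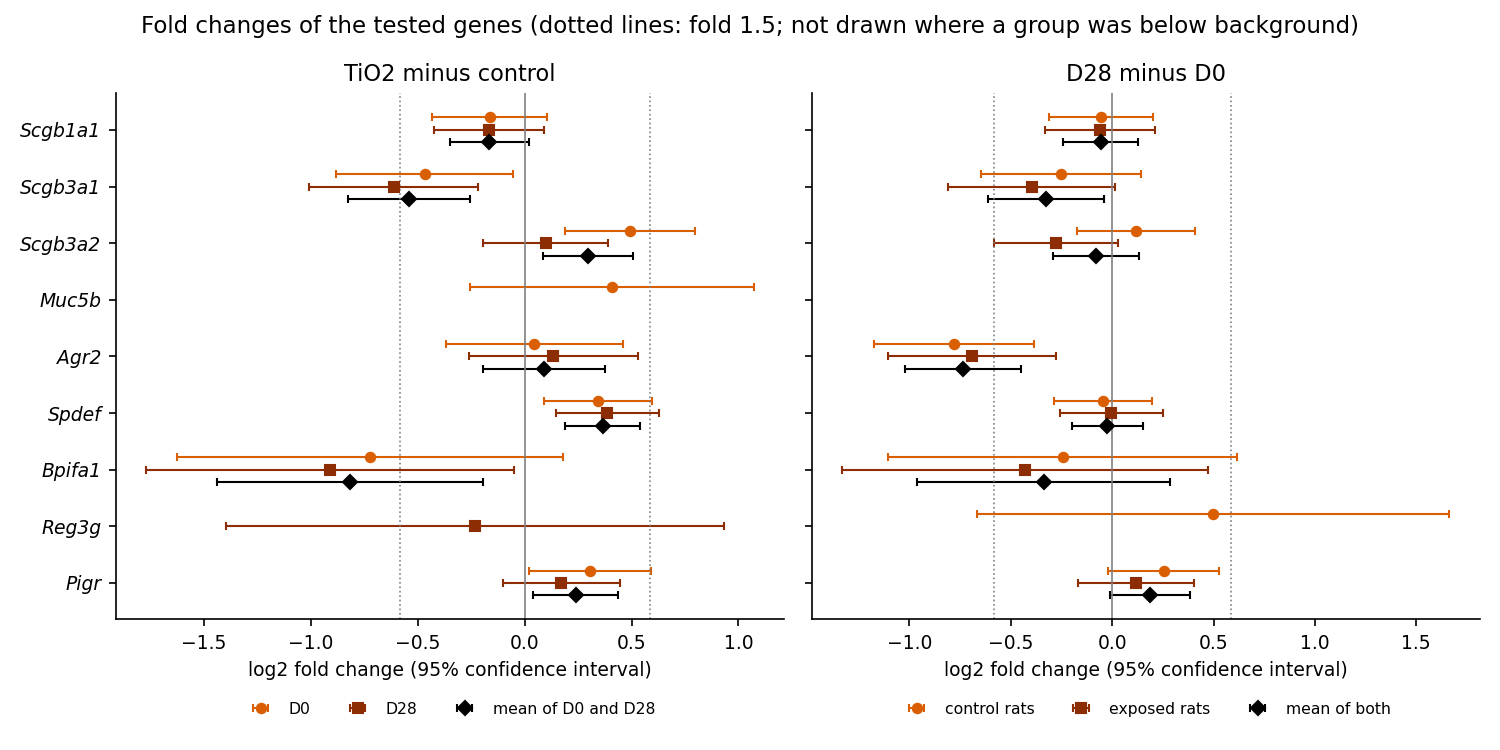
Log2 fold changes of the tested genes with 95% confidence intervals (x axis) between exposed and control rats (left) and between D28 and D0 (right); dotted lines mark a fold change of 1.5, and comparisons of Muc5b and Reg3g with a group below background are not drawn. On the left, the intervals of Scgb3a1 and Spdef excluded 0 on both days; on the right, those of Agr2 excluded 0 in control and in exposed rats.

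None of the 3 secretoglobins was a DEG on either day. Scgb3a1, a secretoglobin of the large airways, was lower in exposed than in control rats on both days. On D0 its level was 12.15, 12.56 and 12.75 (lowest, median and highest) in the control rats, and 12.40, 11.92, 11.77, 11.88 and 12.33 in the 5 exposed rats. The groups overlapped, although 3 of the 5 exposed rats lay below all controls. On D28 its level was 11.60, 12.28 and 12.78 (lowest, median and highest) in the control rats and 11.37, 11.61 and 12.11 in the exposed rats, of which 3 lay below all controls. The log2 FC was -0.47 (SE 0.199, limma adjusted p = 0.307) on D0 and -0.61 (SE 0.190, adjusted p = 0.134) on D28. Averaged over the days it was -0.54 (SE 0.137, limma adjusted p = 0.0179), an exposed level of 0.688 of the control level (95% confidence interval 0.564 to 0.838). Scgb3a1 was lower in exposed rats on all 4 slides that held both groups of D0 (log2 differences -0.74 to -0.35) and on all 3 that held both groups of D28 (-0.80 to -0.22). In this and later slide comparisons a slide held 1 or 2 rats of each group, the same rats as in the tests. Without Control_D28 replicate 6, the lowest control of its day, the D28 log2 FC was -0.75 with a limma adjusted p of 0.0432, and the averaged log2 FC was -0.61 (adjusted p = 0.00447), both over the DEG limits. In no other fit that left out an array was Scgb3a1 a DEG in either contrast.

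Scgb3a2, a secretoglobin of small airways, had a log2 FC above 0 on D0. Control rats lay at 14.74, 15.08 and 15.19 (lowest, median and highest), and the 5 exposed rats at 15.54, 15.47, 15.81, 15.04 and 15.82. All exposed rats but replicate 4 were above every control. On D0 this rat was also the lowest exposed rat for Scgb1a1, Agr2, Bpifa1 and Spdef, but not for Scgb3a1, Muc5b, Reg3g or Pigr. For Pigr that holds for the mean of its 2 probes. The rat was the lowest exposed rat by the coding-region probe (11.61) and the highest by the repeat probe (16.23). The log2 FC of Scgb3a2 on D0 was 0.49 (SE 0.147, limma adjusted p = 0.0801), and without that exposed rat it was 0.61 (adjusted p = 0.0206), which is over the DEG limits. Of 23 fits that left out an array, only this 1 passed both limits (limma adjusted p up to 0.219). On D28 the levels were 14.87, 15.17 and 15.46 in control and 15.07, 15.19 and 15.60 in exposed rats (lowest, median and highest), with a log2 FC of 0.098 (SE 0.140, adjusted p = 0.892). The D28 effect was smaller than the D0 effect by a log2 difference of -0.39 (95% confidence interval -0.82 to 0.028), which did not pass the test (limma adjusted p = 1.00). Exposed rats were higher on 3 of the 4 slides of D0 (-0.024 to 0.75) and on 2 of the 3 of D28 (-0.043 to 0.16).

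Scgb1a1, the club cell secretory protein, was among the brightest probes and did not separate the groups. Its level spanned 16.38 to 16.81 in control and 16.04 to 16.70 in exposed rats on D0, and 16.18 to 16.88 in control and 16.21 to 16.57 in exposed rats on D28. The log2 FC was -0.16 on D0 (95% confidence interval -0.43 to 0.11) and -0.17 on D28 (-0.42 to 0.088), both within the FC limit of 1.5. No Scgb1a1 spot was saturated on any array.

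Muc5b, the main gel-forming mucin of rodent airways at rest, was close to background. Its probe was well above background in 1 of 6 control and 3 of 5 exposed rats on D0, and in none of the 12 rats of D28. On D0 its level was 3.26, 3.74 and 3.98 (lowest, median and highest) in control rats and 4.38, 4.10, 3.72, 4.01 and 4.18 in exposed rats. The 2 groups overlapped, with 4 of 5 exposed rats above all controls, and the log2 FC was 0.41 (SE 0.319, limma adjusted p = 0.778). Under the normexp background correction this log2 FC was 0.055. With both D28 groups below background no FC is given or plotted for that day.

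Spdef, a transcription factor that drives goblet cell differentiation, was higher in exposed rats on both days. On D0 its level was 9.72, 9.86 and 10.05 (lowest, median and highest) in control rats and 10.33, 10.31, 10.44, 9.85 and 10.15 in exposed rats. On D28 it was 9.63, 9.81 and 10.15 in control rats and 9.95, 10.23 and 10.60 in exposed rats (lowest, median and highest). On each day the groups overlapped, with 4 exposed rats above all controls. The log2 FC was 0.34 (SE 0.122, limma adjusted p = 0.169) on D0 and 0.39 (SE 0.116, adjusted p = 0.119) on D28, and the difference between the days was 0.041 (95% confidence interval -0.31 to 0.39). The averaged log2 FC was 0.37 (SE 0.0841, limma adjusted p = 0.00894), which is 1.29-fold (95% confidence interval 1.14 to 1.45) and below the FC limit. Spdef was higher in exposed rats on all 4 slides of D0 (0.098 to 0.39) and on all 3 slides of D28 (0.085 to 0.63). By day, the adjusted p of Spdef was below 0.05 in 2 of 13 other settings on D0 (0.00844 to 0.196) and in 1 of 13 on D28 (0.0263 to 0.323), and in 0 of the 23 fits that left out an array on either day.

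Agr2 encodes a disulfide isomerase of the endoplasmic reticulum on which mucin folding depends, and its level did not follow the exposure. The log2 FC was 0.046 on D0 (95% confidence interval -0.37 to 0.46) and 0.13 on D28 (-0.26 to 0.53), and both comparisons had overlapping groups.

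Between the days, in contrast, Agr2 was lower on D28 in control and in exposed rats. Control rats of D0 lay close together at 9.55, 9.62 and 9.73 (lowest, median and highest), whereas those of D28 spread over 8.32, 8.80 and 9.58. The 5 exposed rats of D0 had 9.49, 9.88, 9.50, 9.38 and 10.13, and those of D28 had 8.63, 8.98 and 9.60 (lowest, median and highest). In each comparison 5 of the 6 D28 rats were below every D0 rat. The log2 FC of D28 against D0 was -0.78 in control rats (SE 0.190, limma adjusted p = 0.0553) and -0.69 in exposed rats (SE 0.199, adjusted p = 0.202). None of the 9 genes was a DEG between the control groups, where 0.608% of all genes were, and 1 gene, Muc5b, was a DEG between the exposed groups, where 0.352% were. The contrast between the exposed groups and the mean of both were chosen after the values had been seen. In that mean, 2 of the 9 genes passed both limits, Agr2 and Muc5b, the latter near background, against 0.712% of all genes. Agr2 fell by 0.73 on the log2 scale (SE 0.138, limma adjusted p = 0.0044), to 0.601 of the D0 level (95% confidence interval 0.493 to 0.733). It was lower on D28 on all 3 slides that held both control groups (-1.18 to -0.33) and on all 4 that held both exposed groups (-0.93 to -0.27).

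Muc5b passed the limits between the exposed groups (limma adjusted p = 0.035) and in the mean of both (adjusted p = 0.0122), in each case against D28 groups in which none of the 12 rats was well above background. Its measured mean was 4.08 in exposed rats of D0 and 2.60 in those of D28, and 3.67 and 3.07 in control rats. The exposed groups did not overlap, as 1.21% of all genes did not, and the exposed D28 rats had 2.08, 2.40 and 3.24 (lowest, median and highest). With the D28 arrays set to the lowest signal well above background, the D0 level of exposed rats was at least 1.00-fold that of D28, and for control rats the bound lay below 1, so no size is given for either. Under the normexp correction the measured log2 difference was -0.23 between the exposed groups (limma adjusted p = 0.105) and -0.15 in the mean of both (adjusted p = 0.0466). In the main fit these measured differences were -1.48 and -1.04. All are differences of signals near background and are not taken as fold changes.

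Among other epithelial genes, few reached the DEG limits between the days, although most general epithelial markers were lower on D28. Of 7 general epithelial markers, 6 had a log2 FC below 0 on D28 in the mean of both exposures and 1 above it, with a median of -0.41, against -0.010 over all genes. At an unadjusted limma p below 0.05, not counted here over all genes, 5 of the 7 were lower and 1 higher. Krt7, a keratin of simple epithelia, was the DEG among them (log2 FC -0.70, SE 0.0794, limma adjusted p = 1.9e-05), and Epcam had -0.26 (adjusted p = 0.171). The mean level of the 7 markers spanned 11.66 to 12.04 in control and 11.60 to 12.07 in exposed rats on D0, and 11.13 to 11.98 and 11.19 to 11.76 on D28. Of 22 further secretory and goblet cell genes, 1 was a DEG in this contrast, Clca1, a goblet cell protein that processes mucus, with a log2 FC of -0.62 (SE 0.164, adjusted p = 0.0475), a call held in 4 of 12 other settings and 7 of 23 fits that left out an array (adjusted p up to 0.104). The 22 genes had a median of -0.055, with 8 above 0 and 14 below. Krt7, Epcam and Clca1 were named after their values were seen, and the part of the epithelial markers in the fall of Agr2 was not tested.

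Bpifa1, a lipid-binding protein of the upper airway surface, varied most among the bright genes. On D0 its level was 12.93, 14.35 and 14.80 (lowest, median and highest) in control rats and 13.62, 13.65, 13.18, 12.94 and 14.06 in exposed rats. On D28 control rats had 13.44, 13.77 and 14.88, and exposed rats had 11.22, 13.25 and 14.52, with 4 of 6 exposed rats below all controls. The groups overlapped on both days, and the log2 FC was -0.72 (SE 0.434, limma adjusted p = 0.614) on D0 and -0.91 (SE 0.414, adjusted p = 0.406) on D28. The averaged log2 FC was -0.82 (SE 0.300, adjusted p = 0.123), and without TiO2_D28 replicate 1, the highest exposed rat of its day, it was -0.96 (adjusted p = 0.0414), over the DEG limits. Bpifa1 passed them in no other fit that left out an array. Exposed rats were lower on 3 of the 4 slides of D0 and higher on the other (log2 differences -1.54 to 0.33), and lower on all 3 of D28 (-3.18 to -0.081). Without TiO2_D28 replicate 2, the lowest rat, the D28 log2 FC was -0.54 (adjusted p = 0.600).

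Reg3g, a C-type lectin that binds Gram-positive bacteria, was near background, with its probe well above it in 1 of 6 control and 0 of 5 exposed rats on D0, and in 2 of 6 and 1 of 6 on D28. Its levels spanned 1.77 to 4.90 over the 23 rats with overlapping groups on both days. On D0, with all exposed rats below background, no FC is given: the measured means were 2.63 in control and 2.35 in exposed rats (limma adjusted p = 0.976). On D28 the log2 FC was -0.23 (SE 0.560, adjusted p = 0.947), with a 95% confidence interval of the fold from 0.380 to 1.91.

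Pigr, the receptor that carries polymeric IgA across the epithelium, was the gene whose groups separated on D0. The control rats had 13.59, 13.76 and 13.89 (lowest, median and highest), and the exposed rats had 14.06, 13.92, 14.24, 13.92 and 14.11, all above every control. On D0, 1 of the 9 genes separated in this way, and 4.31% of all genes did. Its log2 FC was 0.31 (SE 0.138), with a limma adjusted p of 0.356. On D28 the groups overlapped, at 13.62, 13.88 and 14.54 in control and 13.97, 14.11 and 14.60 in exposed rats (lowest, median and highest), and the log2 FC was 0.17 (SE 0.131, adjusted p = 0.717). Exposed rats were higher on all 4 slides of D0 (0.25 to 0.38) and on 2 of the 3 of D28 (-0.54 to 0.32). Jchain, which joins IgA into the polymers that Pigr binds, had a log2 FC of 0.26 on D0 and 0.22 on D28 (limma adjusted p = 0.786 and 0.760).

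The 2 Pigr probes did not track each other. After subtraction of the group means their signals had a Pearson correlation of -0.284 over the 23 arrays. The coding-region probe read 11.62, 11.89, 11.65, 11.55, 11.83 and 11.83 in the control rats of D0 and 12.50, 12.24, 12.85, 11.61 and 12.07 in the exposed rats, so that all exposed rats but replicate 4 lay above the controls. Its log2 FC was 0.53 on D0 (SE 0.233, limma adjusted p over all probes = 0.409) and 0.083 on D28 (SE 0.222). The repeat probe spanned 15.57 to 16.13 in control and 15.59 to 16.23 in exposed rats on D0, with a log2 FC of 0.087 (SE 0.211) on D0 and 0.26 (SE 0.201) on D28. Control rats of D28 against D0 had a log2 FC of 0.52 (SE 0.222, adjusted p = 0.329) by the coding-region probe and -0.0091 (SE 0.201) by the repeat probe. The separation of the groups on D0 is thus a feature of the mean of both probes, which neither probe showed alone.

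**Figure D3:**
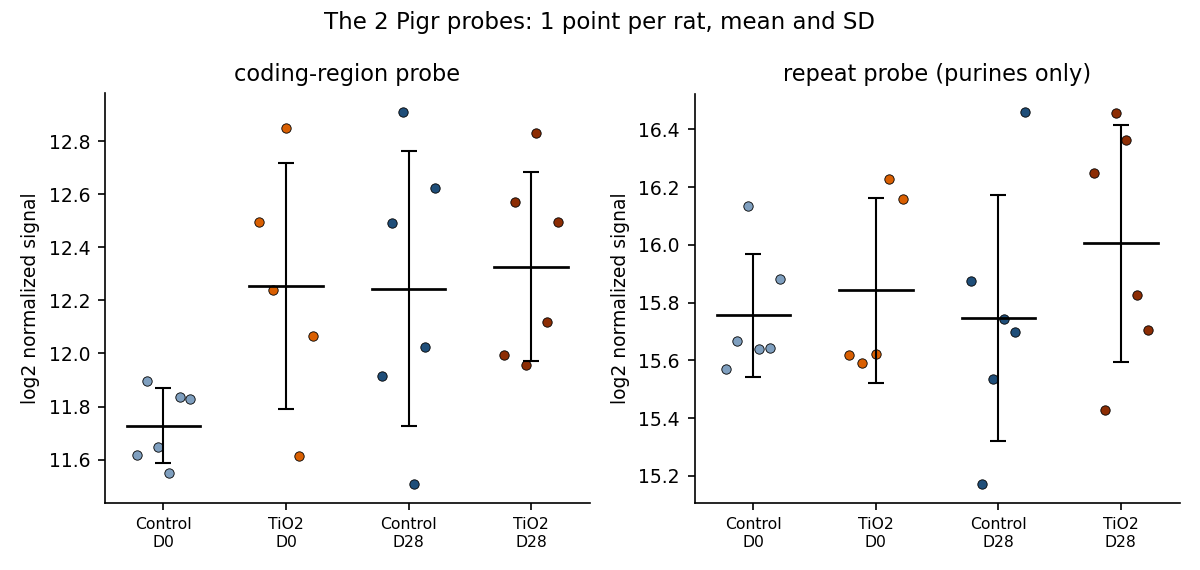
Level of the coding-region probe (left) and the repeat probe (right) of Pigr (y axis, log2 normalized signal) in each rat, with group mean and SD. On D0 the coding-region probe placed 4 of 5 exposed rats above all 6 control rats, and the repeat probe overlapped throughout.

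Genes around these 10 gave the context, from lists of related genes. Beside the list counts below, 1.79% of all genes were DEGs on D0 and 0.756% on D28. Of 24 further secretory and goblet cell genes 22 were tested, and 4 were over-expressed DEGs on D0 and 3 on D28, with none under-expressed. The over-expressed DEGs were Bpifb1, an airway protein of the same family as Bpifa1 (log2 FC 2.30 on D0 and 1.21 on D28), the acidic chitinase Chia (1.54 and 1.43), the haemoglobin-binding Hp (0.91 and 0.76) and, on D0 alone, the GABA receptor subunit Gabrp (1.25, against 0.27 on D28). Their limma adjusted p lay between 9.4e-05 and 0.00975 on D0, and between 0.000391 and 0.0246 for the 3 DEGs of D28. The D28 call of Bpifb1 was lost with the replicate block or the arrays of D28 alone (adjusted p up to 0.147) and without Control_D28 replicate 4 or 5 or TiO2_D28 replicate 6 (up to 0.056). That of Hp was lost with the arrays of D28 alone (adjusted p = 0.059), and that of Gabrp on D0 with normexp (log2 FC 0.56). The median log2 FC of the 22 genes was 0.27 on D0 and -0.039 on D28, against -0.00069 and -0.0056 over all genes. Cyp2f4, a cytochrome of club cells, had a log2 FC of -0.54 on D0 (adjusted p = 0.085) and -0.17 on D28 (adjusted p = 0.786).

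Among other mucins 7 of 10 were tested, and 1 was an over-expressed DEG on each day: Muc1, a membrane mucin of the alveolar and airway surface (log2 FC 0.64 on D0 and 0.61 on D28, limma adjusted p = 0.0101 and 0.0232). The D28 call of Muc1 was lost with the slide block, the replicate block, array weights or the arrays of D28 alone (adjusted p up to 0.12). It was also lost without Control_D28 replicate 4 or 6 or TiO2_D28 replicate 4 or 6 (adjusted p up to 0.0624), and the D0 call without TiO2_D0 replicate 1 (log2 FC 0.57, adjusted p = 0.0379). Muc4, another membrane mucin, had a log2 FC of 1.57 on D0 (adjusted p = 0.0535) and 0.88 on D28 (adjusted p = 0.437) and was well above background on 14 of 23 arrays. On D0 Muc4 was a DEG in 10 of 13 other settings and in 7 of 23 fits that left out an array, with log2 FC from 0.43 (normexp) to 1.65 and adjusted p from 0.00264 to 0.0658 over the settings. The 7 fits left out Control_D0 replicate 1 (adjusted p = 0.0214), Control_D28 replicate 3, 4 or 6, or TiO2_D28 replicate 2, 3 or 4. Muc16 was not analysed here. The median log2 FC of the 7 mucins was 0.34 on both days, but their signal was weak. Their mean level was 4.73 (controls) and 5.13 (TiO2) for D0, then 4.44 (controls) and 4.86 (TiO2) for D28. How far weak signal shaped this median was not tested. The probes of the gel-forming Muc5b and Muc5ac stayed near or below background, and that of Muc5ac had no rn4 position.

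Of 29 regulators of secretory cells, 1 was a DEG on D0, the epithelial transcription factor Elf3 (log2 FC 0.65, limma adjusted p = 0.0187), and 0 on D28, when 0 of the 29 also had an unadjusted p below 0.05. The Elf3 call was lost with the replicate block (adjusted p = 0.0647) and without TiO2_D0 replicate 1 (0.059) or 3 (0.0521). Foxa3, a partner of Spdef in goblet cells, had a log2 FC of 0.83 on D0 and 0.50 on D28 (adjusted p = 0.449 and 0.726) and was well above background on 14 of 23 arrays. The median log2 FC of the list was 0.064 on D0 and 0.012 on D28.

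Of 21 mucosal defence genes 18 were tested, and 3 were over-expressed DEGs on each day. Lactoperoxidase, Lpo, had a log2 FC of 1.64 on D0 and 2.01 on D28 (limma adjusted p = 0.000447 and 0.000104), and Duox1, an airway oxidase that supplies its hydrogen peroxide, had 1.25 and 1.11 (adjusted p = 0.000663 and 0.00288). The siderophore-binding Lcn2 was a DEG on D0 (1.65, adjusted p = 0.00139) and had 0.73 on D28 (adjusted p = 0.231). Ccl28, a chemokine for IgA-secreting cells, was a DEG on D28 (1.06, adjusted p = 0.0364) and had 0.76 on D0, but its probe was well above background on 6 of the 23 arrays. The D28 call of Ccl28 held in 3 of 12 other settings and in 14 of 23 fits that left out an array, and under the normexp correction its log2 FC was 0.18 (adjusted p = 0.0674). It was lost without any of Control_D28 replicates 1, 3, 4 and 5 or TiO2_D28 replicates 2 to 6 (adjusted p up to 0.079). The medians over the list were 0.25 on D0 and 0.088 on D28.

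Markers of the neighbouring ciliated cells were lower in exposed rats without a DEG among them. On D0 13 of 14 and on D28 14 of 14 had a log2 FC below 0, with medians of -0.26 and -0.36, and 5 and 7 of them had an unadjusted p below 0.05 in limma. Over all genes 49.9% were higher by any amount on D0 and 48.8% on D28, and 11.9% and 11% had such a p. Foxj1 had -0.15 (adjusted p = 0.712) on D0 and -0.27 (adjusted p = 0.278) on D28. Their mean level spanned 9.22 to 9.43 in control and 8.75 to 9.27 in exposed rats on D0, and 9.10 to 9.56 and 8.74 to 9.18 on D28. Scgb3a1 was lower in the same rats, and the part of the ciliated cell markers in its level was not tested. Of the 5 basal cell and 7 general epithelial markers, 0 were DEGs on either day. Of 10 type II cell markers 9 were higher on D0 and 8 on D28 (medians 0.24 and 0.19, 0 DEGs), and of 8 type I cell markers 8 and 7 were lower (medians -0.24 and -0.18, 0 DEGs). Of 8 macrophage markers 6 were higher on each day (medians 0.35 and 0.30), and Siglec1 was the DEG among them, on D0. Of 7 neutrophil markers the integrin Itgam was an over-expressed DEG on both days, while 4 had a log2 FC below 0 on D0 and 5 on D28 (medians -0.061 and -0.14).

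**Figure D4:**
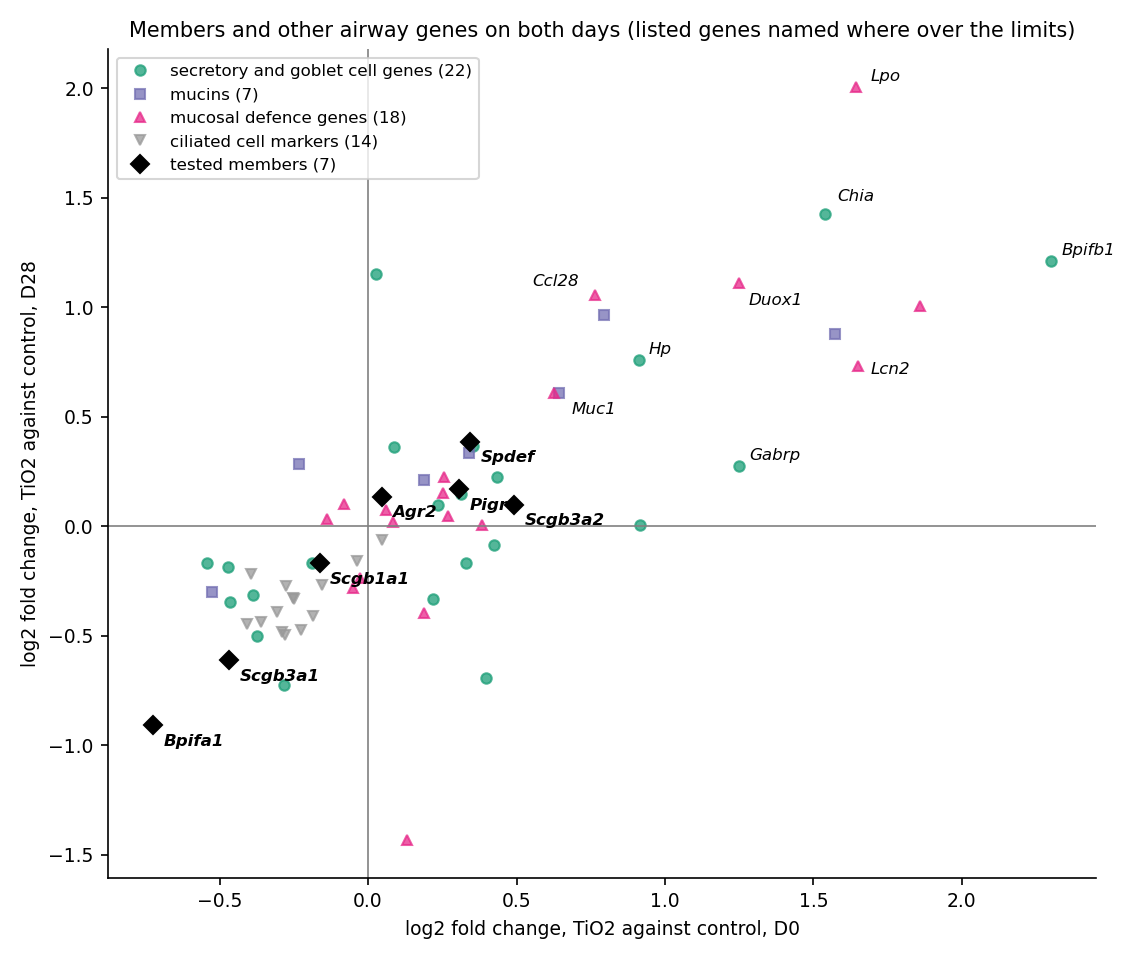
Log2 fold change of exposed against control rats on D0 (x axis) and D28 (y axis) for the tested genes other than Muc5b and Reg3g (black diamonds) and for 4 lists of airway genes, with listed DEGs named. Bpifb1, Chia, Lpo, Duox1, Lcn2, Hp and Muc1 lie to the upper right of Spdef, Pigr and Scgb3a2, while Scgb3a1 and Bpifa1 lie at the lower left with the ciliated cell markers.

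Across the 23 rats, after subtraction of the group means, the genes with the closest pattern were not other genes of the set. Among them were Msantd3 for Scgb1a1 (Pearson r = 0.91), Kcnrg for Scgb3a1 (0.83), Cfap161 for Agr2 (0.86), Tmprss11a for Bpifa1 (0.82), LOC108352408 for Spdef (0.88) and RGD1563034 for Pigr (0.87), each the highest of 23028 correlations over arrays that share slides. Within the set the closest pair was Scgb3a2 with Pigr (r = 0.69, rank 110 among the genes most like Scgb3a2), followed by Pigr with Spdef (r = 0.64, rank 490 among the genes most like Pigr), Scgb3a2 with Spdef (r = 0.60) and Scgb3a1 with Agr2 (r = 0.56). The Pigr correlations use the mean of both its probes, which did not track each other. Scgb3a1 and Spdef, which differed in direction between exposed and control rats, had r = -0.45 within groups.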

How the data were processed

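One array per rat was read from its scanner file. Per the labels and the file headers, Agilent Feature Extraction 11.0.1.1 (12.0.1.1 for Control_D28 replicate 4) made the deposited processed signal intensity, with background already subtracted. The scanner files were used, and a deposited table of intensity, entered as it stood without further normalization, served as an alternative setting. Arrays have no read depth, so their number, 5 or 6 per group, limits the precision. Outlier spots were left out, 40417 probes were kept that on 5 or more arrays were brighter than 95% of the array's 308 negative control spots, and log2 signals were quantile normalized and averaged by probe and symbol (6970 of 23029 genes had several probes). Gene names came from the file of Control_D28 replicate 4, matched by probe name. One model of 4 group means was fitted in limma 3.58.1 (R 4.3.3; 19 residual degrees of freedom), without a batch term since the batch correction of the study was not specified, and was tested on simulated data. "Well above background" is the scanner software's own flag. Against a group wholly below background no fold is given unless its rounded bound, with that group at the lowest signal well above background, lies above 1.00.

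The members, lists and tests were chosen with earlier results of these data known. All 10 members are named, with up to 4 DEGs per list by adjusted p and 8 genes named at the outset (Cyp2f4, Foxj1, Ccl28, Jchain, Lcn2, Foxa3, Muc4, Muc16); other genes named say so. The lists also held neuroendocrine, tuft and ionocyte, B, T and airway smooth muscle cell markers, with 0 DEGs on D0 and D28. Alternatives covered scaling, background correction, signal, filter, probe rule, blocks, weights, thresholds and leaving out each array. One result of the comparison of patterns is not reported here.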

Additional observations from a re-analysis of the deposited data

Results flagged for a closer look

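Within a group, 2 of the 36 sets of values of the 9 genes had a rat set apart from the rest by its gap to the nearest rat (Dixon's critical value, which chance passes in about 1 of 20 groups). Bpifa1 in Control_D0 replicate 3 was 12.93, against 14.12 for the nearest control rat (gap 0.640 of the range), and without it the D0 log2 FC of Bpifa1 was -0.98 (limma adjusted p = 0.333). Pigr in TiO2_D28 replicate 4 was 14.60, against 14.21 for the nearest exposed rat (gap 0.626 of the range). That value is the mean of both Pigr probes. By the coding-region probe this rat had 12.83, against 12.57 for the nearest exposed rat. By the repeat probe it had 16.36, below TiO2_D28 replicate 3 at 16.46.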

How the results depend on the processing

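No called result changed direction under any alternative run. DEGs on D0 numbered 412, and 225 with normexp, 659 by adjusted p alone and 946 by unadjusted p with the FC limit; on D28 they numbered 174, and 97 with normexp, 61 from the arrays of D28 alone, 303 by adjusted p alone and 664 by unadjusted p. Leaving out each array gave 316 (without Control_D0 replicate 4) to 441 on D0 and 111 (without TiO2_D28 replicate 1) to 203 on D28. Among the 9 genes tested, DEGs rose from 0 to 2 on D28 by unadjusted p (Bpifa1 and Scgb3a1), and in the averaged exposure effect to 2 by adjusted p alone (Spdef and Scgb3a1) and to 1 by unadjusted p (Bpifa1). For control D28 against control D0 they rose from 0 to 1, Agr2, with normexp, median signal, the deposited table, the filter by well above background, an intensity trend with robust estimation, array weights or unadjusted p, with adjusted p from 0.0193 to 0.0696 over the settings. For the exposed groups of both days they went from 1 (Muc5b) to 0 with normexp, median signal, the deposited table, the filter by well above background (which leaves Muc5b out) or the replicate block, and to 2 (Muc5b and Agr2) with array weights or unadjusted p. In the mean of both exposures they went from 2 to 1, leaving Agr2, with normexp, median signal, the deposited table or that filter. Leaving out each array gave 0 to 1 of the 9 in every comparison with 2 exceptions, the difference between days (0 to 0) and D28 against D0 averaged over both exposures (2 to 2, Agr2 and Muc5b); Agr2 passed between the control groups without Control_D28 replicate 1 (log2 FC -0.93, adjusted p = 0.00907), TiO2_D0 replicate 5, TiO2_D28 replicate 4 or TiO2_D28 replicate 5, and Muc5b failed between the exposed groups without 8 of the 11 exposed rats in turn. The cause of these changes was not tested. The labels do not say whether the replicate numbers pair the rats. Same-numbered rats deviated together in 3 of 11 pairs, all of D28 (correlations over the 11 pairs -0.225 to 0.455), which cannot decide it. With the replicate block 0 of the 9 genes were DEGs on either day or between the control groups, beside 356 genes on D0 and 138 on D28. With the slide as a block 0 of the 9 were DEGs on either day, beside 506 and 251 genes. Scgb3a1 and Spdef kept an adjusted p below 0.05 in the averaged effect in all 12 other settings and all 23 leave-one-out fits. Muc5b and Reg3g lay near background, with bounds of at most 1.00-fold against groups below it, and Muc5ac did not pass the filter.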
